A study of Mus musculus with 12 samples.

Results

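The enzymes that build cholesterol and fatty acids, together with the proteins that set their output, were followed across 5 groups of mouse cells on 12 Affymetrix Mouse Gene 1.0 ST arrays. A list of 33 genes was used, and 32 of them had a probe set that names that gene alone, out of 19938 genes measured in this way. Acat2, the cytosolic thiolase at the head of the sterol pathway, had none and is not analysed here. A gene with several such probe sets is given by the one of highest mean intensity. The list was divided by role into mevalonate steps (6 measured genes), steps from squalene to cholesterol (11), regulators and sterol transport (5) and fatty acid synthesis, elongation and desaturation (10).

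The cells trace the conversion of astrocytes into induced pluripotent stem cells (iPSCs). Astrocyte iPSCs (2 arrays) were mature lines from Sox1-GFP astrocytes, and MEF iPSCs (2 arrays) came from the line iPS-MEF-Ng-20D-17, made earlier from mouse embryonic fibroblasts (MEFs). Both grew on mitomycin C-treated MEF feeders with 1500 U/ml leukaemia inhibitory factor (LIF) and 15% serum or a serum replacement, and the labels do not say which array had which. Day 6 cells (3 arrays) were Sox1-GFP-positive cells sorted at day 6 after retroviral Oct4, Klf4, Sox2 and c-Myc, grown in 15% serum with 1000 U/ml LIF. Neural stem cells (2 arrays) came from the telencephalon of embryos at day 12.5 to 14.5. Their medium held N2 supplement with 20 ng/ml basic FGF and 20 ng/ml EGF, and no serum is named for it. Astrocytes (3 arrays) were taken from cortex at postnatal day 3, cultured in 10% serum and sorted as Sox1-GFP-negative before the factors were added. Every group but the MEF iPSCs carried the Sox1-GFP reporter as Sox1+/-, and the MEF iPSCs carried Nanog-GFP-IRES-Puro in its place. Medium, age and cell type go together in these groups and cannot be told apart. Replicates are described as biological, but no separate animals or cultures are named, so the p-values cover only the spread among these arrays, part of which may be technical.

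Cholesterol is made from acetyl-CoA through mevalonate, the isoprenoids and squalene, which lanosterol synthase closes into the first sterol. The transcription factors Srebf1 and Srebf2 (SREBP proteins) switch these genes on. Bound to Scap, they are held in the endoplasmic reticulum by Insig proteins while sterol is plentiful and are released when it runs short. Srebf2 acts mainly on sterol genes and Srebf1 mainly on fatty acid genes. The brain makes its own cholesterol, because lipoproteins of the blood do not cross the blood-brain barrier, and astrocytes are a main source of it after birth.

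Astrocytes and iPSCs carried their defining markers, and most of the neural stem cell markers did not single out the neural stem cells. Gfap, the astrocyte intermediate filament, had log2 intensities of 12.10 to 12.65 in astrocytes, and the pluripotency factor Nanog had 11.24 and 11.31 in astrocyte iPSCs and 11.20 and 10.96 in MEF iPSCs. Sox1, the gene behind the sort, had 8.27 to 8.53 in day 6 cells, 8.20 and 8.32 in neural stem cells and 7.97 to 8.25 in astrocytes. The summed level of 7 neural stem cell markers was 10.42 to 10.46 in day 6 cells, against 14.01 and 14.06 in neural stem cells and 13.67 to 13.87 in astrocytes. Of the 7, the 4 called lower in day 6 cells than in neural stem cells were Nes, Fabp7, Nr2e1 and Olig2, and Fabp7 and Olig2 weigh most in the sum. Pax6 averaged 8.51 in day 6 cells, 7.96 in neural stem cells and 8.86 in astrocytes, and Nes and Nr2e1 also averaged higher in astrocytes than in neural stem cells. Sox1 overlapped between neural stem cells and astrocytes. Olig2 was the 1 marker of the 7 called higher in neural stem cells than in astrocytes, at 12.30 and 12.12 against 10.33 to 10.99. Hes5 and Fabp7 averaged slightly higher in neural stem cells, at 8.34 against 8.13 and 13.19 against 13.11. Pearson's r between arrays of one group was 0.992 to 0.996 over all probe sets. The number of arrays, 2 or 3 per group, limits the precision. In such bulk samples, fewer cells of a type and less RNA per cell cannot be told apart.

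The neural stem cells stood apart. In 26 of the 32 genes they had the highest group mean, against 16.1% of all genes, and in 24 genes both of their arrays lay above each of the other 10 arrays, against 9.03% of all genes. They had the lowest mean in 0 of the 32, against 32.9% of all genes. Astrocytes had the highest mean in 5 genes (25.7% of all genes), namely Sc5d, Scap, Elovl5, Fads1 and Fads2, and day 6 cells in 1, Ebp (24.3%). Neither iPSC group was highest in any of the 32, against 17.2% of all genes for astrocyte iPSCs and 16.7% for MEF iPSCs. Day 6 cells had the lowest mean in 9 genes (10.0% of all genes), 6 of which are sterol enzymes, and every day 6 array lay below all others in 6 (4.38%). Astrocyte iPSCs had the lowest mean in 7 (15.3%), namely Tm7sf2, Srebf1, Acss2, Scd1, Scd2, Elovl5 and Fads1, and in each of these both of their arrays lay below all others (4.36%). Astrocytes had the lowest mean in 14 (27.5%), and every astrocyte array lay below all others in 12 (14.0%). MEF iPSCs had the lowest mean in 2 (14.3%).

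**Figure D1:**
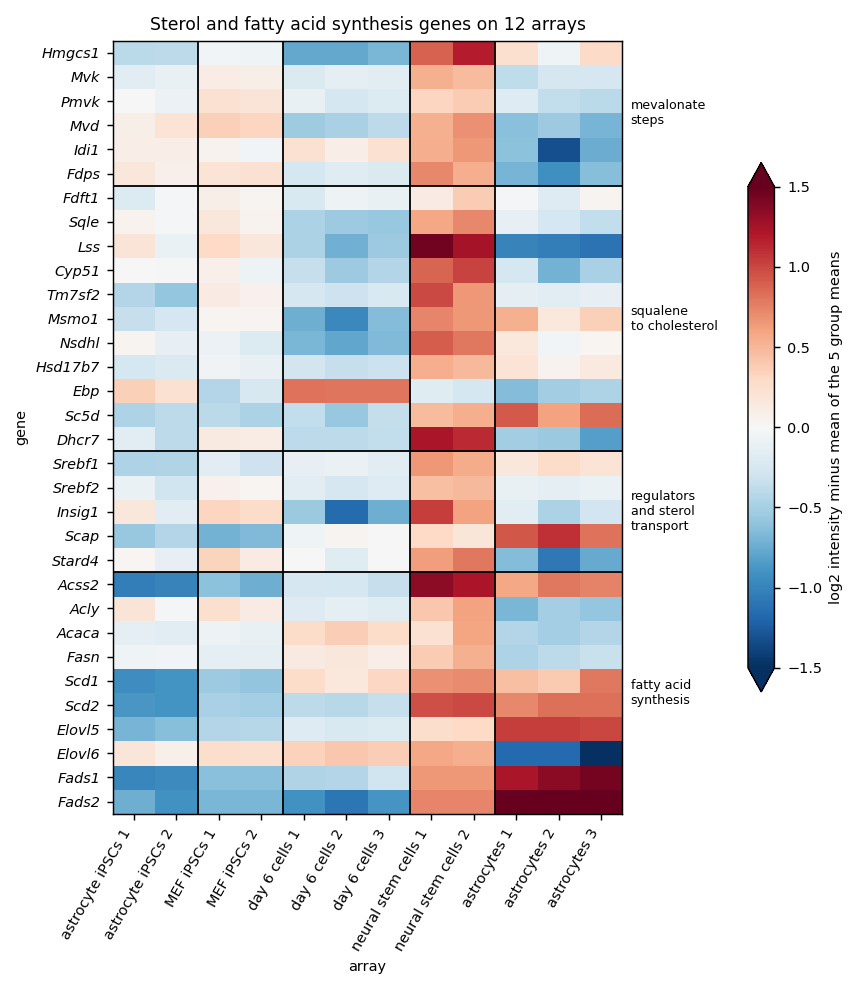
Log2 intensity of each of the 32 genes (rows, by role) on each of the 12 arrays (columns, by group), drawn as the difference from the mean of the 5 group means. Neural stem cells are red in nearly all rows, Ebp is highest in day 6 cells, and Fads1, Fads2, Elovl5, Sc5d and Scap are highest in astrocytes. The colour scale ends at 1.5 in both directions.

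The medians of the early sterol steps and of the fatty acid genes differed in where the astrocytes lay. When each gene was centred on the mean of the 5 group means, the median of the mevalonate steps was 0.04 and -0.0017 in astrocyte iPSCs, 0.16 and 0.14 in MEF iPSCs, -0.24, -0.23 and -0.21 in day 6 cells, 0.54 and 0.60 in neural stem cells, and -0.49, -0.46 and -0.52 in astrocytes. By this median astrocytes were lowest, although for Hmgcs1 they were second highest and day 6 cells lowest. The median of the fatty acid genes was -0.72 and -0.77 in astrocyte iPSCs, -0.46 and -0.47 in MEF iPSCs, -0.19, -0.18 and -0.19 in day 6 cells, 0.62 and 0.63 in neural stem cells, and 0.51, 0.59 and 0.77 in astrocytes. By this median astrocytes lay beside the neural stem cells, and astrocyte iPSCs were lowest. The fatty acid genes were split, however. For Acly, Acaca, Fasn and Elovl6 every astrocyte array lay below all other arrays, as held for 12 of the 32 genes and 14.0% of all genes. For all 19938 genes the same median stayed between -0.05 and 0.03 on every array.

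**Figure D2:**
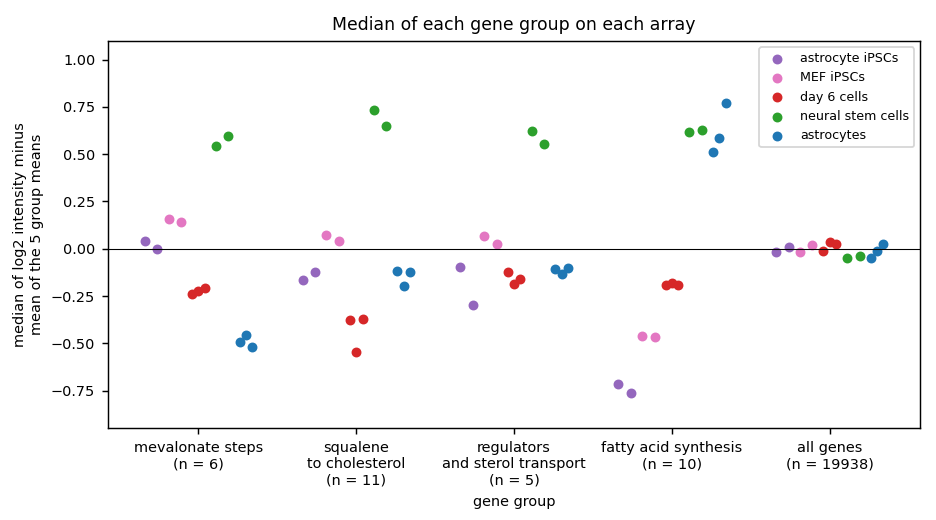
Median over the genes of each role group (x axis, with all genes at the right) of log2 intensity minus the mean of the 5 group means (y axis), with 1 point per array. Neural stem cells are highest in the first 3 role groups, where astrocytes lie between -0.52 and -0.10. In the median of the fatty acid genes astrocytes lie at 0.51 to 0.77, although for Acly, Acaca, Fasn and Elovl6 they are lowest.

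The mevalonate steps turn acetyl-CoA units into the isoprenoid farnesyl diphosphate. Hmgcs1, the synthase that makes HMG-CoA, had log2 intensities of 10.59 and 10.60 in astrocyte iPSCs, 10.96 and 10.93 in MEF iPSCs, 10.22, 10.23 and 10.30 in day 6 cells, 11.88 and 12.16 in neural stem cells and 11.24, 10.93 and 11.27 in astrocytes. Neural stem cells were highest and day 6 cells lowest, each apart from every other array, and MEF iPSCs overlapped the astrocytes. Mvd, which decarboxylates the diphosphate of mevalonate, had 8.82 and 8.94 in astrocyte iPSCs, 9.08 and 9.05 in MEF iPSCs, 8.20, 8.24 and 8.34 in day 6 cells, 9.27 and 9.41 in neural stem cells and 8.10, 8.18 and 8.03 in astrocytes. Both iPSC groups lay between the neural stem cells and the day 6 cells, and day 6 cells lay just above the astrocytes. Idi1, the isomerase of isopentenyl diphosphate, had 9.93 and 9.93 in astrocyte iPSCs, 9.89 and 9.80 in MEF iPSCs, 10.06, 9.94 and 10.07 in day 6 cells, 10.38 and 10.49 in neural stem cells and 9.23, 8.52 and 9.09 in astrocytes. Its 3 astrocyte arrays were the lowest of all and varied among themselves by more than in any other group. Fdps, farnesyl diphosphate synthase, had 10.03 and 9.94 in astrocyte iPSCs, 10.07 and 10.09 in MEF iPSCs, 9.60, 9.68 and 9.65 in day 6 cells, 10.59 and 10.41 in neural stem cells and 9.16, 8.94 and 9.23 in astrocytes. Neural stem cells were highest, astrocytes lowest and day 6 cells next to them. The kinases Mvk and Pmvk varied least, with group means between 7.86 and 8.65 for Mvk and between 8.15 and 8.82 for Pmvk.

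The steps from squalene onward form and trim the sterol rings. Lss, lanosterol synthase, had 9.24 and 8.94 in astrocyte iPSCs, 9.33 and 9.21 in MEF iPSCs, 8.56, 8.32 and 8.49 in day 6 cells, 10.48 and 10.28 in neural stem cells and 8.03, 8.01 and 7.93 in astrocytes. It spanned the widest range of the sterol enzymes, and neural stem cells lay far above every other array. Cyp51, the lanosterol demethylase, had 9.41 and 9.38 in astrocyte iPSCs, 9.48 and 9.33 in MEF iPSCs, 9.06, 8.85 and 8.96 in day 6 cells, 10.28 and 10.42 in neural stem cells and 9.15, 8.70 and 8.92 in astrocytes. Day 6 cells and astrocytes overlapped, below both iPSC groups. Msmo1, the sterol C4 methyl oxidase, had 10.51 and 10.61 in astrocyte iPSCs, 10.90 and 10.90 in MEF iPSCs, 10.12, 9.89 and 10.21 in day 6 cells, 11.59 and 11.51 in neural stem cells and 11.39, 11.02 and 11.22 in astrocytes. Here astrocytes were second to neural stem cells, and day 6 cells were lowest.

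Nsdhl, a dehydrogenase that takes part in removing the C4 methyl groups, had 10.17 and 10.00 in astrocyte iPSCs, 10.03 and 9.91 in MEF iPSCs, 9.44, 9.34 and 9.46 in day 6 cells, 11.02 and 10.91 in neural stem cells and 10.28, 10.08 and 10.15 in astrocytes. The day 6 arrays were below all others. Dhcr7, the reductase of the last step to cholesterol, had 9.30 and 9.08 in astrocyte iPSCs, 9.60 and 9.59 in MEF iPSCs, 9.08, 9.08 and 9.10 in day 6 cells, 10.70 and 10.59 in neural stem cells and 8.95, 8.91 and 8.64 in astrocytes. Day 6 cells overlapped the astrocyte iPSCs, and neural stem cells lay well above every other array. Ebp, the sterol isomerase, had 8.41 and 8.28 in astrocyte iPSCs, 7.62 and 7.81 in MEF iPSCs, 8.87, 8.85 and 8.85 in day 6 cells, 7.88 and 7.79 in neural stem cells and 7.41, 7.54 and 7.59 in astrocytes. It alone of the 32 genes was highest in day 6 cells, where the 3 arrays were almost equal. Of the other 5 enzymes of this stretch, Sqle, Tm7sf2, Hsd17b7 and Fdft1 were highest in neural stem cells. Sc5d, a desaturase, was highest in astrocytes, at 10.15 to 10.47, and between 8.98 and 9.19 on every day 6 and iPSC array.

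**Figure D3:**
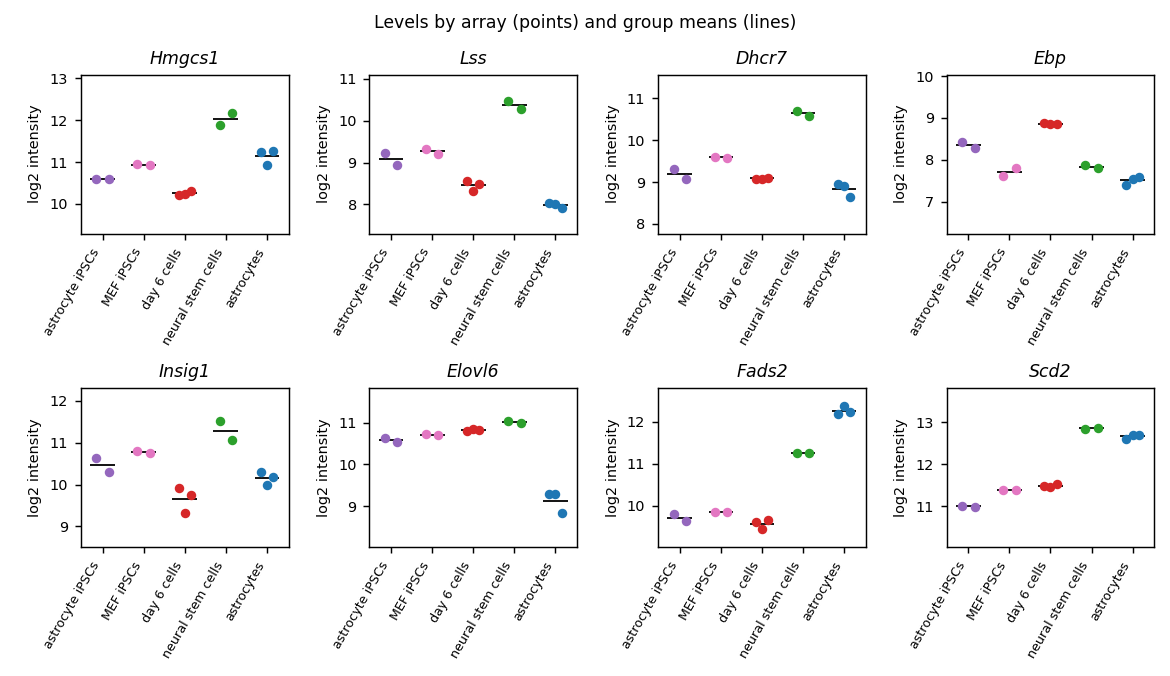
Log2 intensity (y axis, 3.8 units high in every panel) of 8 genes on each array (points) in the 5 groups (x axis), with group means as lines. Hmgcs1, Lss, Dhcr7 and Insig1 are highest in neural stem cells, Ebp in day 6 cells and Fads2 in astrocytes, while Elovl6 is low only in astrocytes.

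The stretches of genome before the starts of 4 genes that were highest in neural stem cells, and of Ebp, which was not, show which promoter elements these genes have in common. They are the 250 bases before the RefSeq start in build GRCm38.p6, on the strand of the gene, and were chosen after the values were seen. Capitals mark 4 motifs searched on both strands: the sterol regulatory element TCACNCCAC, the E-box CACGTG, the CCAAT box bound by NF-Y, and the GC box GGGCGG bound by Sp1.
Hmgcs1 (chr13:119690101-119690350, plus strand): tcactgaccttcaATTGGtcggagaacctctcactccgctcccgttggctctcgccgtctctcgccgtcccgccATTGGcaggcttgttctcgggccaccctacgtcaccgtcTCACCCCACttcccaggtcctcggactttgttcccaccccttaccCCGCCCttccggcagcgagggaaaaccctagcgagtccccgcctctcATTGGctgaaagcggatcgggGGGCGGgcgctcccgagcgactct
Lss (chr10:76531355-76531604, plus strand): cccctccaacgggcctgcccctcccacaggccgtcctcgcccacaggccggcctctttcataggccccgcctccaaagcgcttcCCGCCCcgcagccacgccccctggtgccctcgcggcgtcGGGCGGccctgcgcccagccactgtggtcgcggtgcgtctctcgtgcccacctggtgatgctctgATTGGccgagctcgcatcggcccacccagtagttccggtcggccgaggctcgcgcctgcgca
Cyp51 (chr5:4104698-4104947, minus strand): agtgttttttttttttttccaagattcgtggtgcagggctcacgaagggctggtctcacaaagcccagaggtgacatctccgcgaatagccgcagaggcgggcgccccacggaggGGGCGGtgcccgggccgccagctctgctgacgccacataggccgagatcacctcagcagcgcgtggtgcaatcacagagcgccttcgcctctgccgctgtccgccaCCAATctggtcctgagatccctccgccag
Insig1 (chr5:28071162-28071411, plus strand): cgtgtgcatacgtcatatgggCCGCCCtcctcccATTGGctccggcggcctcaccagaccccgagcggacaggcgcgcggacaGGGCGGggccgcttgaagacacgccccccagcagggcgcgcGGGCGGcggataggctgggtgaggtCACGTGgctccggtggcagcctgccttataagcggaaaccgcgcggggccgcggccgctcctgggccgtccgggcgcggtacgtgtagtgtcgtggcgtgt
Ebp (chrX:8193513-8193762, minus strand): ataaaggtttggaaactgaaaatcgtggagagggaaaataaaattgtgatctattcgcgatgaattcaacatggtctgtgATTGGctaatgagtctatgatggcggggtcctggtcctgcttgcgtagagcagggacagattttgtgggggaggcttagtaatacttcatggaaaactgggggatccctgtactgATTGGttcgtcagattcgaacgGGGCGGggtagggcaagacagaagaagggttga

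RefSeq starts were found for 25 of the 32 genes. A CCAAT box lay before the start of 20 of these 25 (80.0%), against 38.8% of the 15614 array genes with a sequence, and a GC box likewise before 20 (80.0%, against 49.3%). All 14 enzymes of the mevalonate and squalene stretches with a sequence had a CCAAT box, Ebp among them, compared with 3 of 7 fatty acid genes. The E-box stood before 6 of 25 (24.0%, against 8.11%), and the strict sterol element before 1, Hmgcs1 (1.20% of all those genes), at 137 to 129 bases before the start. Ebp, which was highest in day 6 cells, also held CCAAT and GC boxes. A match describes the letters only, and other forms of the sterol element were not searched. No motif overlapped another in the 5 stretches.

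Among the regulators, Insig1, which retains the SREBP proteins and is itself one of their targets, had 10.64 and 10.31 in astrocyte iPSCs, 10.79 and 10.75 in MEF iPSCs, 9.91, 9.31 and 9.74 in day 6 cells, 11.51 and 11.07 in neural stem cells and 10.31, 9.99 and 10.18 in astrocytes. Day 6 cells were lowest, with replicate 2 below the other day 6 arrays, and the neural stem cell arrays differed by 0.44. Stard4, a carrier of cholesterol between membranes, had 8.32 and 8.17 in astrocyte iPSCs, 8.62 and 8.42 in MEF iPSCs, 8.29, 8.10 and 8.29 in day 6 cells, 8.92 and 9.09 in neural stem cells and 7.64, 7.22 and 7.53 in astrocytes. Astrocytes were lowest and neural stem cells highest. Srebf1 had 7.89 and 7.91 in astrocyte iPSCs, 8.20 and 8.05 in MEF iPSCs, 8.24, 8.26 and 8.20 in day 6 cells, 9.02 and 8.92 in neural stem cells and 8.53, 8.63 and 8.57 in astrocytes. Neural stem cells and astrocytes were the upper groups, and astrocyte iPSCs the lowest. Srebf2 stood at 10.22 ± 0.03 in neural stem cells (SD, n = 2) and between 9.55 and 9.80 in the other group means. Scap went its own way, at 9.61 ± 0.05 in day 6 cells (n = 3), 9.86 ± 0.08 in neural stem cells (n = 2) and 10.56 ± 0.14 in astrocytes (n = 3), and it was lowest in iPSCs, at 8.91 to 9.17.

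The fatty acid genes fell into contrasting patterns. Acss2, which makes acetyl-CoA from acetate, had 6.82 and 6.86 in astrocyte iPSCs, 7.24 and 7.13 in MEF iPSCs, 7.61, 7.59 and 7.52 in day 6 cells, 9.21 and 9.09 in neural stem cells and 8.44, 8.65 and 8.61 in astrocytes. All groups were separate, from neural stem cells at the top to astrocyte iPSCs at the bottom. Elovl6, which elongates palmitate to stearate, had 10.64 and 10.53 in astrocyte iPSCs, 10.72 and 10.69 in MEF iPSCs, 10.80, 10.86 and 10.82 in day 6 cells, 11.03 and 11.00 in neural stem cells and 9.29, 9.28 and 8.83 in astrocytes. Only the astrocytes were low. The same order of low astrocytes and higher levels elsewhere held for Fasn, fatty acid synthase, with 9.94 to 10.08 in astrocytes and 10.26 to 10.93 on the other arrays, and for Acaca, acetyl-CoA carboxylase, with 8.79 to 8.85 in astrocytes and 9.14 to 9.90 elsewhere.

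The desaturases ran in the other direction. Fads2, the delta-6 desaturase that starts the synthesis of long polyunsaturated fatty acids, had 9.79 and 9.62 in astrocyte iPSCs, 9.85 and 9.85 in MEF iPSCs, 9.62, 9.45 and 9.64 in day 6 cells, 11.26 and 11.26 in neural stem cells and 12.18, 12.38 and 12.24 in astrocytes. Fads1, the delta-5 desaturase of the same route, had 9.60 and 9.63 in astrocyte iPSCs, 9.96 and 9.96 in MEF iPSCs, 10.13, 10.14 and 10.28 in day 6 cells, 11.24 and 11.24 in neural stem cells and 11.81, 11.94 and 12.03 in astrocytes. For both, astrocytes were highest, neural stem cells came next, and day 6 cells and iPSCs lay well below. Scd2, the stearoyl-CoA desaturase of brain, had 11.00 and 10.98 in astrocyte iPSCs, 11.39 and 11.37 in MEF iPSCs, 11.48, 11.46 and 11.53 in day 6 cells, 12.85 and 12.87 in neural stem cells and 12.60, 12.70 and 12.71 in astrocytes. Its relative Scd1 had 9.88 and 9.93 in astrocyte iPSCs, 10.28 and 10.22 in MEF iPSCs, 11.09, 10.97 and 11.13 in day 6 cells, 11.51 and 11.53 in neural stem cells and 11.27, 11.21 and 11.61 in astrocytes. Both of these close paralogs were high in neural stem cells and astrocytes. In day 6 cells Scd1 lay just below the astrocyte arrays and Scd2 far below them, and how well their probe sets tell the paralogs apart was not tested. Elovl5, the elongase of polyunsaturated fatty acids, was highest in astrocytes at 11.69 to 11.72.

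Group differences were fitted with limma, and genes count as called when the Benjamini-Hochberg adjusted p over all genes was under 0.05 and the log2 fold change reached 1 in size. Fold changes are given on the log2 scale with limma's standard error (SE). The 7 comparisons share arrays, so their values are set side by side and not read as separate evidence.

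Day 6 cells were compared with neural stem cells because the title of the series likens the intermediate state to them. Enzymes of both the early and the late stretch of sterol synthesis were lower in day 6 cells. Of the 32 genes, 14 were lower (5.94% of all genes) and 1, Ebp, was higher (2.94%), or 15 in either direction (8.88%). The lower genes were 2 mevalonate steps, 7 of the 11 squalene-to-cholesterol steps, Insig1 and 4 fatty acid genes. The median log2 fold change was -1.18 for squalene to cholesterol, -0.76 for the mevalonate steps, -0.73 for regulators and -0.58 for fatty acid genes, against 0.07 for all genes.

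Lss differed most, at -1.93 ± 0.11 (adjusted p = 8.49e-08), followed by Hmgcs1 at -1.77 ± 0.11. Fads2 was lower by 1.69 ± 0.09 and Insig1 by 1.64 ± 0.18. Acss2, Dhcr7 and Nsdhl were at -1.57 ± 0.08, -1.55 ± 0.10 and -1.55 ± 0.08. Next came Msmo1 at -1.47 ± 0.11, Cyp51 at -1.39 ± 0.12, Scd2 at -1.37 ± 0.06 and Sqle, squalene epoxidase, at -1.18 ± 0.08. Mvd was at -1.08 ± 0.08 and Fads1 at -1.05 ± 0.08. Ebp was at 1.02 ± 0.08 in the opposite direction (adjusted p = 1.84e-06), and at 0.98 without neural stem cell replicate 2, just under the fold limit. Tm7sf2, a sterol C14 reductase, was at -1.09 ± 0.09, and just under the limit at -0.91 without neural stem cell replicate 1. With no fold limit, 28 genes were lower (18.4% of all genes) and Ebp remained the 1 higher (20.0%). The genes whose difference was smallest were those that lengthen and start saturated chains, Acaca at -0.11 ± 0.09 (adjusted p = 0.396) and Elovl6 at -0.19 ± 0.12 (adjusted p = 0.239). Day 6 cells and neural stem cells were similar in summed proliferation markers, at 12.82 to 12.90 in day 6 cells and 12.90 and 12.91 in neural stem cells. Of 8 oligodendrocyte-lineage markers 3 were lower in day 6 cells, at summed levels of 9.49 to 9.65 against 10.67 and 11.05 in neural stem cells. Of 9 astrocyte markers 5 were lower, at summed levels of 10.82 to 10.94 against 12.70 and 12.75. One of the 9, Gja1, was higher in day 6 cells, at 10.00 to 10.06 against 9.07 and 8.70. Their part in the result was not tested.

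The wider pathway list of 40 genes, 31 of them measured, had 1 higher (2.94% of all genes) and 4 lower (5.94%) in this comparison. Abca1, the pump that exports cholesterol from cells, had 6.56 and 6.72 in astrocyte iPSCs, 6.76 and 6.63 in MEF iPSCs, 9.82, 9.73 and 9.78 in day 6 cells, 6.28 and 6.78 in neural stem cells and 11.16, 11.13 and 11.19 in astrocytes. It was higher in day 6 cells by 3.25 ± 0.12 (adjusted p = 4.83e-09), a comparison in which 14 of the 32 synthesis genes were lower. Elovl2, an elongase of very long polyunsaturated fatty acids, was at -3.91 ± 0.17, with levels of 5.99 ± 0.16 in day 6 cells (SD, n = 3) and 9.90 ± 0.09 in neural stem cells (n = 2). Elovl4 was at -1.25 ± 0.09, Mid1ip1, an activator of acetyl-CoA carboxylase, at -1.57 ± 0.14, and Cpt1a, which sends fatty acids into mitochondria for oxidation, at -1.87 ± 0.12.

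**Figure D4:**
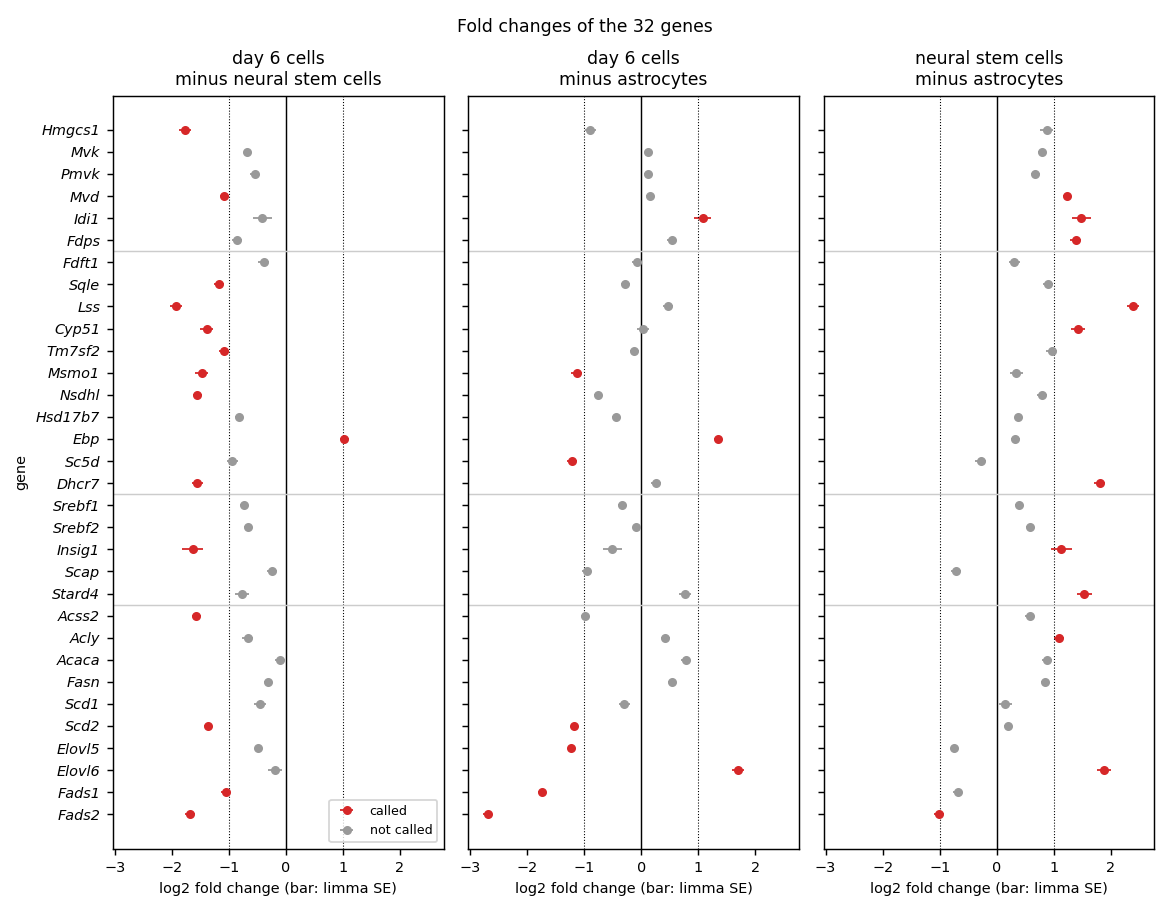
Log2 fold change with limma SE (x axis) of the 32 genes (rows) in 3 comparisons. Dotted lines mark the fold limit, and red points are called genes. Against neural stem cells, day 6 cells have 14 red points to the left and 1, Ebp, to the right, and against astrocytes the red points lie on both sides.

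Astrocytes are the starting cells, and day 6 cells were set against them next. The list did not move in one direction. The desaturases Fads1, Fads2 and Scd2 and the elongase Elovl5 were lower, while Elovl6, Ebp and Idi1 were higher. Of the 32 genes, 3 were higher (6.75% of all genes) and 6 lower (10.1%), or 9 in either direction (16.9%). The share is thus not far above that of all genes. With dim genes left out, 26.4% of the genes kept were called, and the 9 were the same.

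Fads2 fell by 2.70 ± 0.08, the largest change of the list (adjusted p = 1.99e-10), and Fads1 by 1.74 ± 0.07. Elovl5 was at -1.23 ± 0.05 and Scd2 at -1.18 ± 0.05, but Scd1 only at -0.30 ± 0.10 (adjusted p = 0.021, not called). Among sterol enzymes Sc5d was at -1.22 ± 0.09 and Msmo1 at -1.13 ± 0.10. Elovl6 rose by 1.69 ± 0.11 (adjusted p = 8.97e-08) and Ebp by 1.35 ± 0.07. Idi1 was at 1.08 ± 0.14, and at 0.93 on its second probe set. Without astrocyte replicate 2 it was at 0.86, and under cyclic loess at 0.89, both short of the fold limit. The medians were 0.14 for the mevalonate steps, -0.12 for squalene to cholesterol, -0.35 for regulators and -0.65 for fatty acid genes, against 0.04 for all genes. With no fold limit 10 genes were higher (23.8%) and 15 lower (25.1%). Acss2 at -0.99 ± 0.07, Scap at -0.96 ± 0.08 and Hmgcs1 at -0.90 ± 0.10 lay just short of the limit, and passed it under 4, 2 and 2 of the alternatives that keep the limit, in that order.

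Of the 31 further pathway genes, 2 were higher (6.75% of all genes) and 8 lower (10.1%). Lbr, which besides holding the lamina at the nuclear envelope is a sterol C14 reductase like Tm7sf2, rose by 2.06 ± 0.09 (adjusted p = 4.01e-09), and Tm7sf2 itself was at -0.12 ± 0.08. Lbr had 11.04 and 10.91 in astrocyte iPSCs, 10.59 and 10.49 in MEF iPSCs, 10.25, 10.31 and 10.32 in day 6 cells, 9.71 and 9.98 in neural stem cells and 8.27, 8.34 and 8.09 in astrocytes. Its astrocyte arrays were the lowest and its iPSC arrays the highest. Acsl4, a ligase that activates arachidonic acid, rose by 1.28 ± 0.10. Cpt1a fell by 2.84 ± 0.11, Thrsp, a lipogenic regulator, by 2.54 ± 0.12, Cyp46a1, the brain cholesterol 24-hydroxylase, by 1.74 ± 0.10 and Abca1 by 1.38 ± 0.11. Markers of other cells moved in the same comparison. Of the 5 proliferation genes measured all 5 were higher in day 6 cells, with a summed log2 level of 12.82 to 12.90 against 10.85 to 11.42 in astrocytes. Of 9 astrocyte markers 7 were lower, and of 9 fibroblast markers 6 were lower, with a summed level of 9.80 to 9.97 against 13.30 to 13.39. Ogn and Thy1, at means of 12.25 and 11.79, weigh most in the astrocyte sum. Ogn averaged only 5.33 in astrocyte iPSCs and 4.99 in MEF iPSCs, which grew on feeders. The part of these markers in the lipid gene differences was not tested.

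Neural stem cells had higher levels than astrocytes of 6 sterol enzymes and a lower level of Fads2. In all they were higher in 10 of the 32 genes (6.49% of all genes) and lower in 1, Fads2 (8.10%), or 11 in either direction (14.6%). Lss was higher by 2.40 ± 0.11 (adjusted p = 1.12e-08), Elovl6 by 1.88 ± 0.12, Dhcr7 by 1.81 ± 0.10 and Stard4 by 1.54 ± 0.12. Idi1 was at 1.49 ± 0.16, Cyp51 at 1.42 ± 0.12, Fdps at 1.38 ± 0.09 and Mvd at 1.23 ± 0.08. Insig1 was at 1.13 ± 0.18 and Acly, the citrate lyase that supplies cytosolic acetyl-CoA, at 1.09 ± 0.09. The calls of Insig1 and Acly lay near the fold limit, with Insig1 at 0.95 and Acly at 0.90 under cyclic loess, Insig1 at 0.91 without neural stem cell replicate 1 and Acly just short of the limit without replicate 2.

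Fads2 was at -1.01 ± 0.09 (adjusted p = 1.68e-06). That call also stood at the limit, just short of it with the replicate number as a block, at -0.98 with arrays centred on the median and -0.95 without astrocyte replicate 2. Elovl5 at -0.75 ± 0.06, Scap at -0.71 ± 0.09 and Fads1 at -0.68 ± 0.08 were short of the fold limit and not called. The medians were 1.05 for the mevalonate steps, 0.80 for squalene to cholesterol, 0.58 for regulators and 0.39 for fatty acid genes, against -0.03 for all genes. With no fold limit 26 genes were higher (22.6%) and 5 lower (23.3%). Among the 31 further genes 4 were higher (6.49% of all genes) and 6 lower (8.10%). Abca1 was at -4.63 ± 0.12, larger in size than any of the 32 synthesis genes, and Elovl2 at 3.55 ± 0.17. All 5 proliferation markers were higher in neural stem cells, at a summed level of 12.90 and 12.91 against 10.85 to 11.42 in astrocytes. Of 9 fibroblast markers 5 were lower, at 9.69 and 9.83 against 13.30 to 13.39, a sum in which Ogn and Thy1 weigh most. The part of these markers in the lipid differences was not tested.

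Established iPSCs, the end of reprogramming, were set against the day 6 cells. Few of the 32 genes were called in either iPSC group, 1 in astrocyte iPSCs and 2 in MEF iPSCs, and 6.11% of all genes were called in each comparison, so the count in MEF iPSCs is at the background share. In astrocyte iPSCs, Scd1 was lower at -1.16 ± 0.11 (adjusted p = 8.67e-06, with 2.82% of all genes lower). By limma 0 genes were higher (3.29% of all genes). At an unadjusted limma p under 0.05, 10 were higher and 11 lower. The share of all genes at that unadjusted limit was not counted, so these counts have no background beside them. In MEF iPSCs, Insig1 was higher at 1.12 ± 0.18 (3.18% of all genes) and Ebp lower at -1.14 ± 0.08 (2.93%). Without day 6 replicate 2 the count in MEF iPSCs was 1, since Insig1 stood at 0.95.

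With no fold limit, 9 genes were higher in astrocyte iPSCs than in day 6 cells (15.5% of all genes) and 9 lower (14.0%). The 9 higher were 8 sterol enzymes and Insig1, among them Nsdhl at 0.67 ± 0.08, Lss at 0.63 ± 0.11, Mvd at 0.62 ± 0.08 and Sqle at 0.54 ± 0.08. The 9 lower held 6 fatty acid genes, with Acss2 at -0.73 ± 0.08, Fads1 at -0.57 ± 0.08 and Scd2 at -0.50 ± 0.06 besides Scd1, and also Scap, Srebf1 and Ebp. In MEF iPSCs 17 were higher (15.0%) and 8 lower (14.7%). There Msmo1 was at 0.83 ± 0.11, Lss at 0.82 ± 0.11, Mvd at 0.81 ± 0.08 and Hmgcs1 at 0.69 ± 0.11, and Scd1 was at -0.82 ± 0.11. Both iPSC groups were set against the same day 6 arrays. Medians were 0.25 in astrocyte iPSCs and 0.42 in MEF iPSCs for the mevalonate steps, and in the same order 0.11 and 0.45 for squalene to cholesterol, 0.01 and 0.25 for regulators and -0.46 and -0.23 for fatty acid genes, against -0.03 and -0.02 for all genes.

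Of the 31 further genes 1 was higher and 2 lower in astrocyte iPSCs, and 1 higher and 1 lower in MEF iPSCs, few enough to be near the 6.11% of all genes called in each. Abca1 was lower, at -3.13 ± 0.12 in astrocyte iPSCs and -3.08 ± 0.12 in MEF iPSCs, and Cpt1a was at 1.68 ± 0.12 and 1.76 ± 0.12 in the same order. The iPSCs grew on feeders. Of 9 fibroblast and feeder markers 8 were higher in astrocyte iPSCs and 5 in MEF iPSCs than in day 6 cells, with summed log2 levels of 11.79 and 12.62 in astrocyte iPSCs, 11.48 and 11.55 in MEF iPSCs and 9.80 to 9.97 in day 6 cells. Their part in these differences was not tested.

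Astrocyte iPSCs lay below neural stem cells in nearly the whole list. At an unadjusted limma p under 0.05, a rule for which the share of all genes was not counted, 1 was higher and 31 lower. By the call rule 0 of the 32 genes were higher (5.03% of all genes). At that rule 10 were lower (7.51% of all genes, with 12.5% called in either direction). The 10 were Acss2 at -2.30 ± 0.09 (adjusted p = 5.09e-09), Scd2 at -1.87 ± 0.07, Fads1 at -1.63 ± 0.08, Scd1 at -1.61 ± 0.12, Fads2 at -1.55 ± 0.09, Dhcr7 at -1.45 ± 0.11, Hmgcs1 at -1.43 ± 0.12, Tm7sf2 at -1.33 ± 0.10, Lss at -1.30 ± 0.12 and Srebf1 at -1.06 ± 0.07. Insig1, at -0.82 ± 0.20, was not called, but passed at -1.04 without neural stem cell replicate 2. With no fold limit 1 gene was higher (21.9% of all genes) and 31 lower (20.4%). The fatty acid genes had the lowest median, -1.25, followed by squalene to cholesterol at -0.94, regulators at -0.76 and mevalonate steps at -0.51, against 0.05 for all genes. Ebp was at 0.51 ± 0.09 in the opposite direction. Abca1 was at 0.11 ± 0.13 (adjusted p = 0.557), and Lbr was higher at 1.13 ± 0.11. In all, 2 of the 31 further genes were higher (5.03% of all genes) and 5 lower (7.51%). Of 9 fibroblast and feeder markers 8 were higher in astrocyte iPSCs, at summed levels of 11.79 and 12.62 against 9.69 and 9.83 in neural stem cells, and their part in the result was not tested.

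The 2 iPSC groups differed in 0 of the 32 genes at the call rule by limma (0.742% of all genes, 0.461% higher and 0.281% lower). An unadjusted limma p under 0.05 was found for 15 genes, 1 higher and 14 lower in astrocyte iPSCs. The share of all genes at that unadjusted limit was not counted. Without the fold limit 5 genes passed (5.77% of all genes). Ebp was higher in astrocyte iPSCs at 0.63 ± 0.09 (adjusted p = 0.00195), with 8.41 and 8.28 in astrocyte iPSCs and 7.62 and 7.81 in MEF iPSCs. Tm7sf2 was lower at -0.60 ± 0.10 (adjusted p = 0.00548), with 7.23 and 7.09 in astrocyte iPSCs and 7.79 and 7.73 in MEF iPSCs. Scd2 at -0.39 ± 0.07, Fads1 at -0.35 ± 0.08 and Acss2 at -0.35 ± 0.09 were the other 3. Over all 32 genes the median was -0.19, against -0.0016 for all genes. Summed fibroblast and feeder markers were 11.79 and 12.62 in astrocyte iPSCs and 11.48 and 11.55 in MEF iPSCs, with 1 of 9 called higher in astrocyte iPSCs, as was 1 of 7 pluripotency markers, and their part in these differences was not tested. The reporter, the cell of origin and the line differ together between these groups and cannot be told apart.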

How the data were processed

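The deposited values are probe set intensities, processed by the authors with RMA (robust multi-array averaging) per the submitters' processing notes, with no version or genome build given in the sources used here. They are linear and run from 20.2 to 15436, with array medians of 97.9 to 104.9, and log2 was taken first. Whether a constant was added is unknown, and one would shrink differences of dim genes. Of 28853 probe sets, 21789 carry 1 gene symbol in the platform annotation, 1621 several and 5443 none, and 999 genes had more than 1 single-gene probe set. One mean per group was fitted over all 12 arrays with limma 3.58.1 in R 4.3.3 (7 residual degrees of freedom) for 7 comparisons, and the code was tested on simulated data. Errors of levels are standard deviations (SD). Genes given array by array are the 19 with the largest fold change among those called in at least 1 comparison, up to 6 per role. Summed marker levels are log2 of summed intensities. The genes, lists and tests were chosen with earlier results of these data known. Alternatives were the mean of probe sets, a filter on dim genes (above the array median in at least 2 arrays, 12592 kept), cyclic loess, median centring, a fit on the compared groups alone, trended and robust eBayes, no fold limit, 16 subtracted before log2, the replicate number as a block, and each array left out. Python 3.11.15 served for the tables (pandas 2.3.3 and numpy 2.4.6) and, through matplotlib 3.10.9, for the figures.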

Additional observations from a re-analysis of the deposited data

How the results depend on the processing

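Without the fold limit 25 genes were called for day 6 cells against astrocytes and 29 for day 6 cells against neural stem cells. Against day 6 cells the counts were 18 for astrocyte iPSCs and 25 for MEF iPSCs. They were 31 for neural stem cells against astrocytes, 32 for astrocyte iPSCs against neural stem cells and 5 between the iPSC groups. In that order, 48.9%, 38.4%, 29.6%, 29.8%, 45.9%, 42.3% and 5.77% of all genes passed the same rule. Each count held all genes called with the limit. Leaving out each array in turn gave 9 to 10, 14 to 15, 1 to 1, 1 to 2, 10 to 12, 10 to 12 and 0 to 0 in the same order, and the count of 1 for MEF iPSCs came without day 6 replicate 2. Every other alternative run kept each count within 1.5 times its value. Of the single fold changes, no called one turned its sign in any alternative run. Leaving aside the run without the fold limit, the calls that changed had original fold changes of 0.82 to 1.13 in size, around the limit. Among those other runs cyclic loess changed the most, 8 of 224. Same-numbered arrays are not stated to share an animal or day, and their deviations from the group means correlated between -0.10 and 0.41, above 0.1 in 11 of 21 pairs. Where both groups have 2 arrays, the deviations mirror each other and both pairs give the same value. The 21 pairs are therefore not all separate values. With the replicate block the counts were 9, 15, 1, 2, 10, 10 and 0. Intensities carry no depth, and the number of arrays limits what smaller differences can show.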

Other observations

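Some genes that are not among the 32 followed the sterol enzymes closely across the arrays. Of 6227 named genes whose group means spanned at least 1 log2 unit, the 10 with the highest Pearson correlation over the 12 arrays with the mean of the 17 measured mevalonate and squalene-to-cholesterol enzymes had r of 0.972 to 0.987. The arrays share their groups, so these values describe 5 group levels more than 12 separate points. Pgap1, an enzyme that remodels the lipid anchor of membrane proteins, came first, with 7.86 and 7.69 in astrocyte iPSCs, 8.14 and 8.09 in MEF iPSCs, 7.48, 7.21 and 7.25 in day 6 cells, 10.20 and 10.31 in neural stem cells and 7.54, 7.23 and 7.07 in astrocytes. Neural stem cells were far above all others. The others were Abr, Chn2, the transcription factor Klf12, the elongase Elovl2, the G protein subunit Gnb4, the cadherin Celsr3, the adaptor Shc4, the silencing factor Tnrc6c and Spry1, an inhibitor of receptor tyrosine kinase signalling. All 10 were highest in neural stem cells. Within the list itself, Cyp51 (0.978), Dhcr7 (0.960), Srebf2 (0.954) and Sqle (0.945) tracked the same mean most closely, of which the 3 enzymes enter that mean, while Ebp had r of -0.34 and Scap -0.13.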
